A study of Canis lupus familiaris with 48 samples.

Results

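ENSCAFG00000006902 on chromosome 1 and ENSCAFG00000005437 on chromosome 21 are 2 of 32704 genes counted in the dog kidney line MDCK I, an established epithelial cell line, under hyperosmotic stress of 24 h. They were chosen by their read counts, which were far lower after each of 3 added solutes than in control and placed urea below NaCl and raffinose for the first gene and above them for the second. Differences from control, and between urea and the other solutes, therefore describe the choice and are given without a test. Cells were grown for 144 h. The control group spent its last 24 h in regular medium of 300 mOsm, and the other groups in medium brought to 500 mOsm with 200 mOsm of NaCl, raffinose or urea. Each of the 4 groups held 12 libraries, 1 at each of 12 cell passages between 1 and 19. All come from 1 cell line, so p-values measure the spread between passages of that line.

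Sodium chloride and raffinose stay largely outside cells, draw water out and shrink them, whereas urea crosses many membranes and raises the osmolality on both sides. Cells of the kidney medulla meet high salt and high urea together. Known responses to impermeant solutes include the transcription factor NFAT5 and the uptake or synthesis of organic osmolytes, and urea perturbs protein folding. The count table gives both genes by Ensembl identifier only; a symbol was paired with 0 identifiers of the table, so no function is given for either gene, and markers of the cell line could not be checked.

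On the dog genome build CanFam3.1, ENSCAFG00000006902 spans 116938234 to 116947100 on the minus strand of chromosome 1, with 7 exons and 1674 exonic bases. It lies inside the span of ENSCAFG00000006878 (116891476 to 116985764, same strand, 88 exons), with 0 exonic bases in common. ENSCAFG00000005437 spans 23345710 to 23393624 on the minus strand of chromosome 21, with 14 exons and 6188 exonic bases, and no other annotated gene overlaps it. Library totals lay between 3.92 and 16.2 megareads, with a median of 10.5. Levels are reads per megaread (CPM) on totals scaled by the trimmed mean of M values (TMM), and are given as mean ± SD with n = 12 per group.

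ENSCAFG00000006902 was an abundant transcript in control medium. Its 12 control libraries ranged from 341.9 to 796 CPM around a median of 668 (mean 609 ± 163). After NaCl the lowest, median and highest libraries had 40.1, 95.8 and 134 CPM (mean 89.97 ± 26.1). After raffinose they had 38.8, 87.1 and 112 CPM (mean 83.4 ± 21.97). Every NaCl and raffinose library thus lay below every control library. Urea left the least: 16.6, 34.6 and 67.8 CPM (mean 36.4 ± 16.2), again with no overlap with control. The urea libraries did overlap those of the other solutes, since only 8 of 12 lay below the lowest NaCl library and 8 of 12 below the lowest raffinose library. At the same passage, however, urea was below NaCl in 12 of 12 pairs and below raffinose in 12 of 12, as were 23.7% and 25.9% of tested genes. Reads of this gene were never scarce: the smallest count in any library was 129, after urea at passage 8. The label of this pair of genes speaks of loss, and for ENSCAFG00000006902 the fall was partial, with no library at 0. Fewer cells carrying the transcript and less transcript per cell cannot be told apart in bulk RNA.

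ENSCAFG00000005437 showed the other order of solutes. Control libraries ranged from 20.9 to 48.2 CPM with a median of 39.9 (mean 38.4 ± 8.43). After urea the lowest, median and highest libraries had 0.418, 2.60 and 6.85 CPM (mean 2.97 ± 1.95). After NaCl these were 0.0972, 0.637 and 1.56 CPM (mean 0.672 ± 0.467), and after raffinose 0.0863, 0.374 and 0.976 CPM (mean 0.490 ± 0.325). No library of any solute reached the lowest control library. At the same passage, NaCl was below urea in 12 of 12 pairs (as for 23.2% of tested genes) and raffinose was below urea in 11 of 12, the exception being passage 19. The NaCl and urea libraries of passage 19 both had 5 reads (0.388 and 0.418 CPM), so only the scaling orders that pair. The remaining signal was a handful of reads: 1 to 16 per library after NaCl (87 in all), 1 to 8 after raffinose (52 in all) and 5 to 91 after urea (391 in all), against 248 to 682 in control. In 2 NaCl and 5 raffinose libraries the count was 3 or fewer. A count of 1, as at passage 10 after raffinose, has an exact Poisson 95% interval of 0.0253 to 5.57 reads, or 0.00235 to 0.517 CPM, which covers counting error only. Even so, 0 of the 36 libraries with a solute were at 0.

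**Figure D1:**
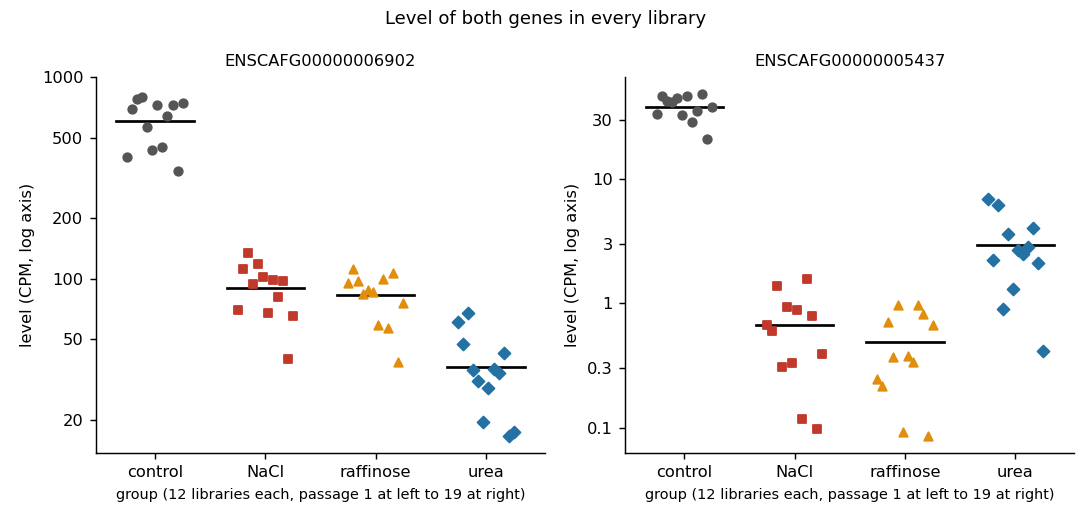
Level of each gene in CPM (vertical log axis) in the 12 libraries of each group, ordered by passage from left to right; horizontal bars are group means. ENSCAFG00000006902 is lowest after urea (mean 36.4 CPM), and ENSCAFG00000005437 is lowest after raffinose and NaCl (0.490 and 0.672 CPM), with every solute library below every control library for both genes.

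As a share of the control mean, ENSCAFG00000006902 kept 14.8% (NaCl), 13.7% (raffinose) and 5.98% (urea). ENSCAFG00000005437 kept 1.75%, 1.28% and 7.75%. NaCl and raffinose thus left a far smaller share of ENSCAFG00000005437 than of ENSCAFG00000006902, while urea left a somewhat larger one. Within same-passage pairs, the share of ENSCAFG00000006902 kept after urea ran from 2.35% at passage 19 to 15.1% at passage 1. For ENSCAFG00000005437 the same 2 passages were the extremes after urea, at 1.10% and 20.5%. After NaCl and raffinose the pairwise shares of ENSCAFG00000006902 stayed between 8.12% and 23.6%.

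The edgeR log2 fold changes against control, with their standard errors, were -2.76 ± 0.20, -2.87 ± 0.20 and -4.06 ± 0.21 for ENSCAFG00000006902 after NaCl, raffinose and urea. For ENSCAFG00000005437 they were -5.84 ± 0.28, -6.36 ± 0.31 and -3.67 ± 0.24. Among the 10138 genes with a mean of at least 5 CPM, ENSCAFG00000005437 had the lowest fold change after NaCl and the lowest after raffinose, and it ranked 2 after urea. The lowest after urea was ENSCAFG00000006902, which ranked 21 after NaCl and 34 after raffinose. These ranks follow from how the genes were chosen. When tested genes of a lower mean were counted too, neither gene had the lowest fold change after any solute. For scale, 36.1% of 12654 tested genes were called lower after NaCl, 38.2% after raffinose and 24.9% after urea (edgeR's quasi-likelihood test, adjusted p under 0.05). Genes whose 12 solute libraries all lay below all 12 control libraries made up 11.0% after NaCl, 12.9% after raffinose and 4.38% after urea. The 3 solutes were compared with the same 12 control libraries.

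**Figure D2:**
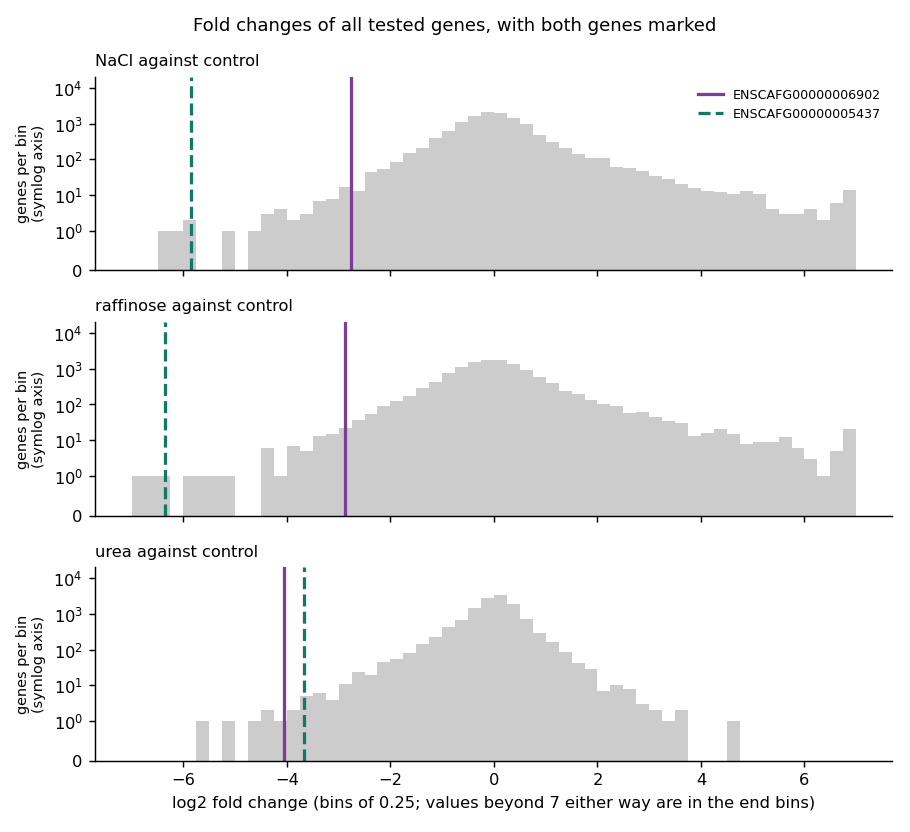
Number of tested genes (vertical axis, linear up to 1 and logarithmic above) per log2 fold change against control, for each solute; vertical lines mark the 2 genes. ENSCAFG00000005437 stands far in the lower tail after NaCl (-5.84) and raffinose (-6.36), and both genes stand in the lower tail after urea (-4.06 and -3.67).

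Expressed per length, so that the genes can be set side by side, ENSCAFG00000006902 had 364 ± 97.4 reads per kilobase of exon and megaread (RPKM) in control, above 99.2% of tested genes, and ENSCAFG00000005437 had 6.20 ± 1.36 RPKM, above 31.6%. After urea the RPKM of ENSCAFG00000006902 was 21.8 ± 9.68, still above 65.9% of tested genes. That of ENSCAFG00000005437 was 0.480 ± 0.315 after urea (above 6.01%), and 0.109 ± 0.075 and 0.0791 ± 0.0525 after NaCl and raffinose (above 0.332% and 0.174%). The chromosome 1 gene therefore stayed in the upper part of the range of levels under every solute, while the chromosome 21 gene went from a modest level to the bottom of it.

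The direction of a difference between NaCl and raffinose had no part in the choice of the genes, and this difference was tested. Both genes were chosen as low after both solutes, however, so a large difference was unlikely from the start. Neither gene passed. ENSCAFG00000006902 differed by a log2 fold change of 0.11 ± 0.19 (NaCl minus raffinose, 95% interval -0.27 to 0.49, edgeR adjusted p = 0.747) and was higher after NaCl in 7 of 12 pairs. For ENSCAFG00000005437 the difference was 0.51 ± 0.45 (interval -0.40 to 1.42, adjusted p = 0.485), with 7 of 12 pairs higher after NaCl. The interval for the chromosome 1 gene excludes a difference of 2-fold; the one for the chromosome 21 gene, with its few reads, does not. Over all tested genes this comparison called 15.4%. With passage as a replicate block 3595 genes were called in place of 1948, and still neither of the 2 (adjusted p = 0.599 and 0.446). Raffinose and NaCl levels thus did not differ beyond their spread for either gene, an outcome that choosing genes low after both solutes favoured.

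Across passages, the spread of both genes was wide. The biological coefficient of variation, which is the spread between libraries of a group beyond counting error, was 31.6% for ENSCAFG00000006902 and 44.2% for ENSCAFG00000005437. Each is 1 estimate over the 4 groups together. Among genes of like average abundance over the 48 libraries (within 0.5 log2 CPM) the medians were 12.7% and 16.6%, and 98.8% and 98.7% of those genes had a lower value. Counting error was a small part of this for the chromosome 1 gene: in control its levels varied by 26.8% where 1.19% would come from counting, and after urea by 44.5% where 5.04% would. For ENSCAFG00000005437 the levels varied by 21.98% in control, where counting alone gives 4.76%, so its wide spread lay in the solute groups. There they varied by 69.5% (NaCl), 66.4% (raffinose) and 65.7% (urea), where counting alone gives 37.1%, 48.04% and 17.5%.

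Passage 17 was low for the chromosome 1 gene in every group. ENSCAFG00000006902 had its lowest library at passage 17 in all 4 groups, with 342 CPM in the control library and 40.1, 38.8 and 16.6 in those of NaCl, raffinose and urea. Relative to the group means this is a log2 deviation of -0.98 on average, from -1.10 to -0.78. ENSCAFG00000005437 also had its lowest control library there, with 300 reads (20.9 CPM). After NaCl it had 1 read at passage 17 and 1 at passage 13, and after raffinose 1 at passage 17 and 1 at passage 10, so no single lowest passage can be given for those groups. After urea it had 2.10 CPM at passage 17 and its lowest level, 0.418 CPM, at passage 19. Of all tested genes, 0.245% (31 genes) had passage 17 lowest in all 4 groups, and 2.47% had any 1 passage lowest in all 4. The median gene deviated by -0.0014 at that passage, and 0.648% of genes deviated further down than ENSCAFG00000006902. The libraries of passage 17 were not shallow, with 10.6 to 13.3 megareads. Passage 17 was singled out after the values were seen, and its low levels have no test.

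**Figure D3:**
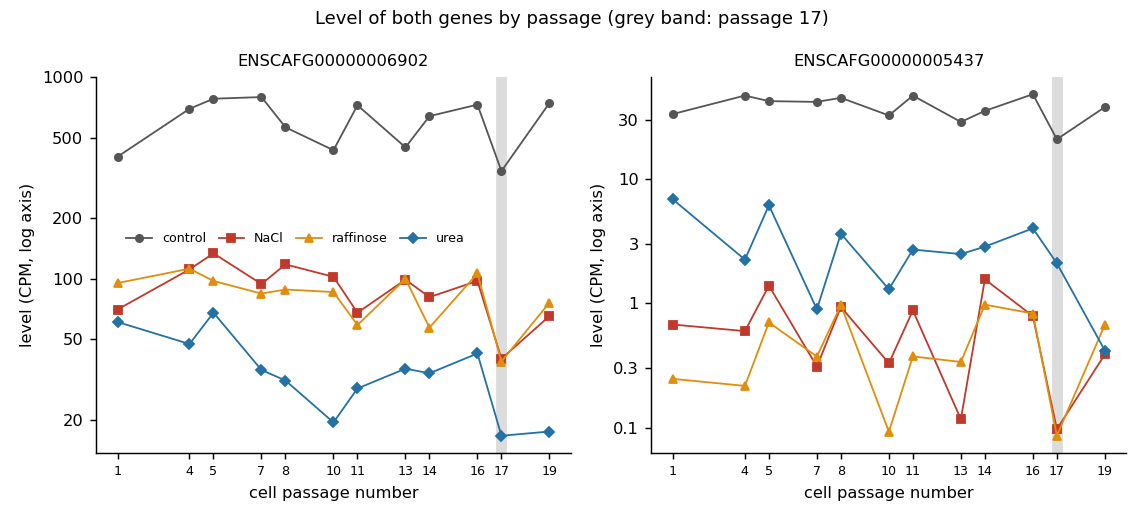
Level of each gene in CPM (vertical log axis) against cell passage number (horizontal axis), with 1 line per group. ENSCAFG00000006902 has its lowest point at passage 17 (grey band) in all 4 groups. Its urea line runs unevenly from 61.0 CPM at passage 1 to 17.5 at passage 19, with 67.8 at passage 5, 19.4 at passage 10 and 42.6 at passage 16.

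A linear trend with passage was tested in edgeR with the group in the model. ENSCAFG00000006902 declined by 0.39 ± 0.11 log2 units per 10 passages (slope -0.39, 95% interval -0.62 to -0.16, adjusted p = 0.0145), a call made for 16.2% of tested genes, and for 8.2% in this direction. The fit takes the 48 libraries as independent, although libraries of the same passage deviate together. The mean log2 CPM of the 4 groups, with 1 value per passage, correlated with passage at r = -0.59 (permutation p = 0.0393, adjusted p = 0.197 over 10 relations; rho -0.64, p = 0.0274, adjusted p = 0.137), which did not pass. The edgeR call also rested on few passages: the slope was -0.25 without passage 17 (adjusted p = 0.108) and -0.32 without passage 5 (adjusted p = 0.0692). With the counts of a passage summed over the groups, a sum made mostly of control reads, the slope was -0.03 (adjusted p = 0.967) and 7 genes in all were called in place of 2048. For ENSCAFG00000005437 the slope was -0.40 ± 0.17 (interval -0.74 to -0.05), which did not pass (adjusted p = 0.108), but passed without passage 16 (-0.56, adjusted p = 0.0226). 

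Slopes under the solutes were set against the control slope. For ENSCAFG00000006902 the urea slope was steeper than the control slope by 0.80 ± 0.30 log2 units per 10 passages (difference -0.80, interval -1.41 to -0.18, unadjusted p = 0.012), and this did not pass over all genes (edgeR adjusted p = 1). The differences for NaCl and raffinose were -0.40 ± 0.31 and -0.33 ± 0.30 (adjusted p = 1 and 0.962). For ENSCAFG00000005437 the NaCl, raffinose and urea differences were -0.31 ± 0.56, 0.52 ± 0.69 and -0.73 ± 0.39 (adjusted p = 1, 0.963 and 1). The test called 0 of 12654 genes for each solute; at an unadjusted p under 0.05 it gave 561, 705 and 345 genes (4.43%, 5.57% and 2.73%), and DESeq2 called 0 as well. Within the 12 urea libraries alone, log2 CPM of ENSCAFG00000006902 correlated with passage number at r = -0.72 (permutation p = 0.0089, adjusted p = 0.089 over 10 relations; Spearman's rho = -0.69, p = 0.0171, adjusted p = 0.137). Without passages 1 and 19 that r was -0.54, and the urea slope difference of this gene was -0.25. In control r was -0.03 (permutation p = 0.933), and -0.52 without those passages. These correlations with passage number were added after the values were seen.

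The 2 genes varied together across the passages of the control group. Their log2 CPM had r = 0.84 over the 12 control libraries (two-sided permutation test, p = 0.00075, adjusted p = 0.0075 over the 10 relations computed) and a rho of 0.64 (p = 0.0303, adjusted p = 0.151). Without the 2 passages farthest from the median, 1 and 17, r was 0.73. Of 10137 other genes of at least 5 CPM, 99.9% had a lower r with ENSCAFG00000006902 in these libraries, a description across genes that share the same libraries. In urea r was 0.72 (p = 0.00727, adjusted p = 0.0289; rho 0.66, p = 0.0223, adjusted p = 0.151), and 0.69 without passages 17 and 19. The adjusted p rose above 0.05 in 5 of 12 fits that each left out 1 passage (1, 5, 10, 13 or 19), to at most 0.106. After NaCl and raffinose r was 0.45 and 0.25 (permutation p = 0.138 and 0.45, adjusted p = 0.229 and 0.5; rho 0.33 and -0.01, p = 0.295 and 0.991), and it fell to -0.02 and -0.01 without the 2 farthest passages. Against the same background, 94.7% of genes had a lower r with ENSCAFG00000006902 in urea, 89.3% in NaCl and 74.9% in raffinose. ENSCAFG00000005437 had at most 16 reads per library in those 2 groups. Whether r differs between groups was not tested. The r of log2 CPM with the library total was -0.49 for ENSCAFG00000005437 in raffinose and -0.30 in control. Elsewhere, over both genes and the 4 groups, it lay between -0.19 and 0.11. A part of library depth in these correlations was not tested.

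**Figure D4:**
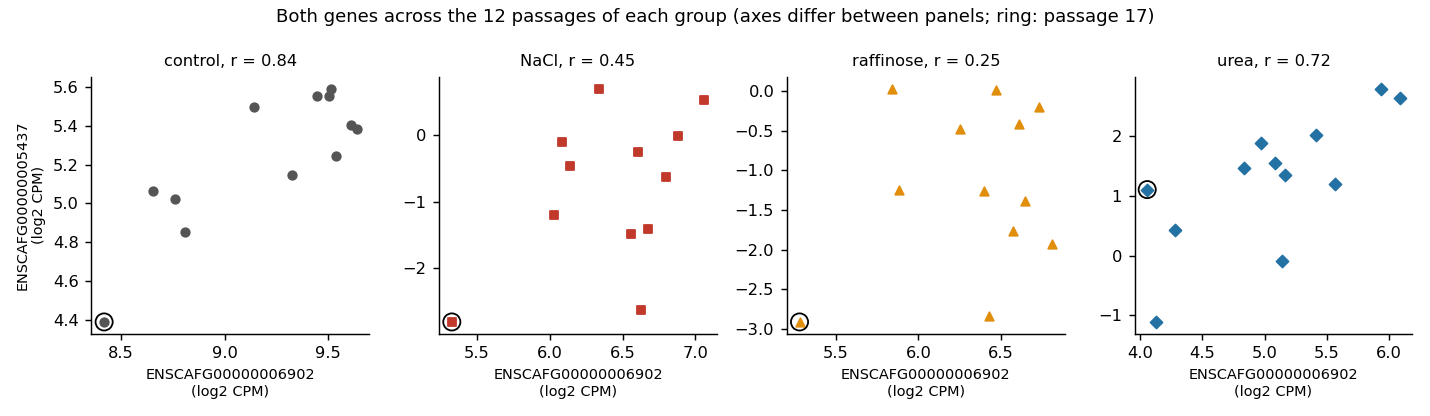
Log2 CPM of ENSCAFG00000005437 (vertical axis) against that of ENSCAFG00000006902 (horizontal axis) over the 12 passages of each group, 1 panel per group with its own axes; the ring marks passage 17. The points rise together in control (r = 0.84) and urea (r = 0.72), and r was lower after NaCl (0.45) and raffinose (0.25).

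The control level of a gene at a passage was also compared with its level under a solute at the same passage. For ENSCAFG00000005437, control and NaCl levels correlated at r = 0.71 (permutation p = 0.00867, adjusted p = 0.0289; rho 0.55, p = 0.0665, adjusted p = 0.222), but r was 0.22 without passages 13 and 17, so this relation rests on those passages. Its adjusted p was above 0.05 when any 1 of 7 of the 12 passages was left out (5, 8, 10, 11, 13, 17 or 19), at most 0.302 without passage 17. With raffinose r was 0.60 (permutation p = 0.0371, adjusted p = 0.0927) and with urea 0.11 (permutation p = 0.733). For ENSCAFG00000006902 none of the 3 passed: r was 0.46 with NaCl, 0.32 with raffinose and 0.30 with urea (permutation p = 0.135, 0.313 and 0.341), and the first became -0.19 without passages 1 and 17. 

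No tested gene within 5 positions of either gene was as far below control. Of the 5 annotated genes on each side of ENSCAFG00000006902, 6 of 10 had enough reads to be tested. After NaCl 2 were called lower and 1 higher, with a median log2 fold change of -0.05; after raffinose 2 lower and 1 higher (-0.08); after urea 0 lower and 2 higher (-0.03), or 2 lower with passage as a replicate block. The medians over all tested genes were -0.02, -0.02 and 0.02, and 34.6%, 36.7% and 27.4% of tested genes were called higher, beside the shares called lower given above. The enclosing gene ENSCAFG00000006878 had mean levels of 217, 171, 174 and 196 CPM in control, NaCl, raffinose and urea. Its log2 fold changes were -0.35 ± 0.07, -0.32 ± 0.07 and -0.15 ± 0.07 (edgeR adjusted p = 4.86e-05, 0.000119 and 0.0934), against -2.76, -2.87 and -4.06 for the gene inside it. The next gene towards higher coordinates, starting at 116960989 and also inside that span, went from 63.1 CPM in control to 63.0, 62.1 and 55.5 CPM, and was not called for any solute. The neighbour that moved most, ENSCAFG00000006938 (from 116991803), had 29.9, 15.2, 12.2 and 43.2 CPM in control, NaCl, raffinose and urea. It fell with the impermeant solutes (log2 fold change -0.98 ± 0.10 and -1.28 ± 0.10, edgeR adjusted p = 4.01e-13 and 4.18e-17) and rose with urea (0.54 ± 0.09, adjusted p = 2.37e-06).

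Of the 5 annotated genes on each side of ENSCAFG00000005437, 3 of 10 were tested, all on the side of higher coordinates. The nearest gene on each side had at most 3 reads over all 48 libraries. After NaCl 1 of the 3 was called lower and 0 higher, after raffinose 2 lower and 1 higher, and after urea 1 lower and 0 higher (2 lower with the replicate block). The gene starting at 23460905 had 4.13, 1.29, 1.14 and 3.72 CPM in control, NaCl, raffinose and urea. Its log2 fold changes were -1.67 ± 0.15, -1.87 ± 0.16 and -0.16 ± 0.14, and the first 2 passed (edgeR adjusted p = 6.49e-14 and 4.4e-15, with 0.364 for urea). The gene starting at 23483761 had 106, 98.4, 90.4 and 97.0 CPM in the same order, and only its difference under raffinose passed (log2 fold change -0.23 ± 0.07, adjusted p = 0.00351). The third, ENSCAFG00000005462 (from 23513349), had 2.56, 2.75, 3.46 and 1.61 CPM. It rose after raffinose (0.42 ± 0.16, adjusted p = 0.0164) and fell after urea (-0.64 ± 0.17, adjusted p = 0.00145), with 0.11 ± 0.16 for NaCl (adjusted p = 0.546).

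**Figure D5:**
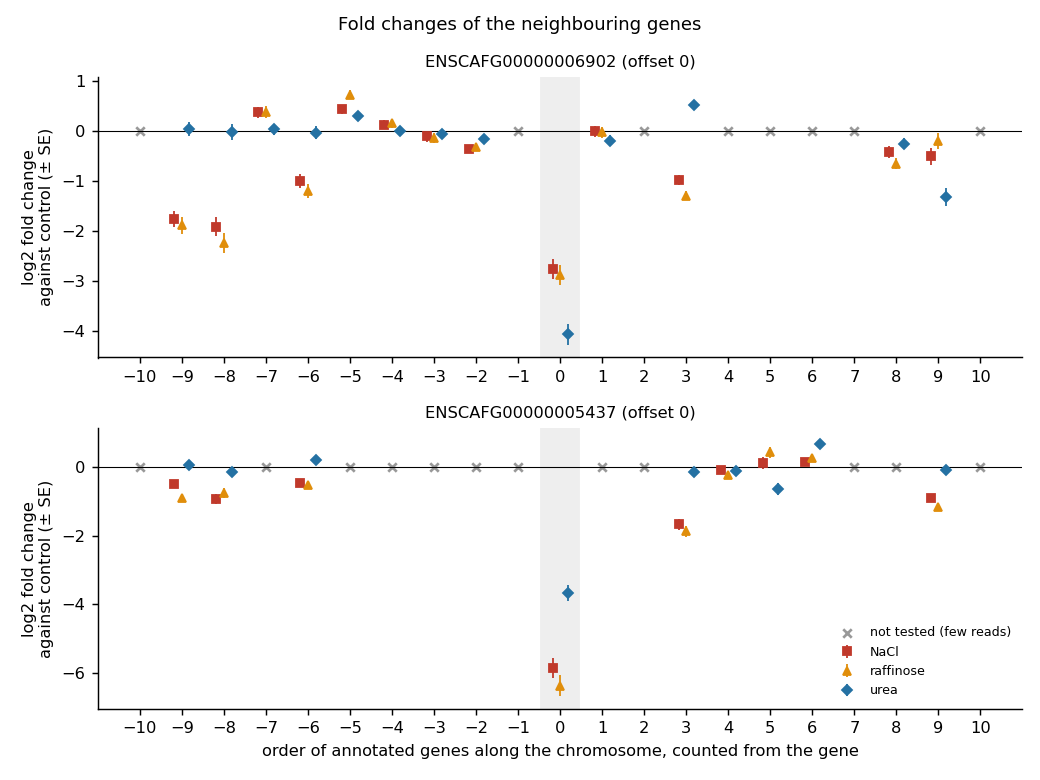
Log2 fold change against control with its standard error (vertical axis) for the 10 annotated genes on each side of each gene (horizontal axis, in gene order), with 1 symbol per solute; crosses on the zero line are genes with too few reads to test. The gene at offset 0 is the lowest in both panels, and the tested genes within 5 positions lie between -1.87 and 0.73.

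The genes most alike in pattern were found by the Pearson correlation of log2 CPM with each gene over the 48 libraries, among 10137 others of at least 5 CPM. Most of this correlation comes from the differences between groups, and all values share the same libraries. Variation inside the groups enters it too, so the r inside the groups given below is partly fixed by the choice. For ENSCAFG00000006902 the closest was ENSCAFG00000012319 (chromosome 5, 14867920 to 14870357, 9 exons), with r = 0.94. Its control level of 104 ± 21.3 CPM compared with 38.4 ± 10.4 for NaCl, 39.6 ± 13.0 for raffinose and 31.5 ± 9.93 for urea, a smaller fall than that of ENSCAFG00000006902. Inside the groups its r with ENSCAFG00000006902 was 0.94 (control), 0.87 (NaCl), 0.89 (raffinose) and 0.82 (urea). Next came ENSCAFG00000001791 (chromosome 1, 84940066 to 84994247, 40 exons; r = 0.94), at 178 ± 34.2, 87.7 ± 21.4, 69.3 ± 15.02 and 49.9 ± 13.3 CPM in the same order of groups. Its r inside the groups was 0.40, 0.55, 0.64 and 0.88.

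For ENSCAFG00000005437 the closest was ENSCAFG00000004033 (chromosome 15, 13480574 to 13486579, 4 exons; r = 0.96), at 118 ± 22.6 CPM in control medium and 23.4 ± 9.81, 21.6 ± 7.28 and 40.3 ± 14.5 under NaCl, raffinose and urea. Inside the groups its r was 0.46 (control), 0.67 (NaCl), 0.58 (raffinose) and 0.87 (urea). The next was ENSCAFG00000018334 (chromosome 4, 59849028 to 59905807, 29 exons; r = 0.95). It stood at 78.3 ± 19.3 CPM in control medium and at 3.79 ± 1.83, 3.62 ± 2.00 and 22.3 ± 12.8 under NaCl, raffinose and urea, so its mean too was lower after NaCl and raffinose than after urea. Inside the groups its r with ENSCAFG00000005437 was 0.82 (control), 0.85 (NaCl), 0.49 (raffinose) and 0.89 (urea). ENSCAFG00000006902 and ENSCAFG00000005437 correlated with each other at r = 0.72 over the 48 libraries, rank 277 among the genes compared with ENSCAFG00000006902 and rank 889 among those compared with ENSCAFG00000005437.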

How the data were processed

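The authors deposited raw read counts per gene for 48 libraries of polyadenylated RNA. Per the submitters' processing notes, CASAVA, HISAT2 2.0.5 and featureCounts 1.5.1 were used. Per the file headers, exons of the Ensembl release 87 annotation of CanFam3.1 were counted without strand, so an antisense transcript would be counted with its gene, and the deposited table gives each gene's other annotation value, its exonic length in bases. Column names of passage 10 have a suffix that the labels do not explain.

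After filterByExpr (12654 genes left) and TMM scaling, counts were fitted with glmQLFit over all 48 libraries in edgeR 4.0.16 (R 4.3.3), with Benjamini-Hochberg adjustment over all tested genes at 0.05. The fit was also run on simulated counts with independent libraries and the same spread for every gene. That simulation holds no shared passage effect, so it cannot speak to the passage slope in these data. The correlations used log2 CPM with a prior count of 0.5 and 100000 permutations. All replicate libraries differed beyond sampling noise (lowest chi-square per gene 4.99). The labels give the same passage to 1 library of each group; deviations from group means correlated at 0.28 on average in the 72 same-passage pairs (-0.07 to 0.66, 66 over 0.1), against -0.02 for the other pairs. Named genes are the 2 chosen genes, the 2 most correlated with each, and, added after their values were seen, the enclosing gene and tested neighbours. The genes, lists and tests were chosen with earlier results of these data known. Alternatives were RLE factors, library totals, other filters, DESeq2 1.42.0, a replicate block, the 2 groups alone, a minimum fold of 1.5, summed counts, another prior count, and passages left out.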

Additional observations from a re-analysis of the deposited data

How the results depend on the processing

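The falls of both genes against control kept their direction and moved by less than 1 SD of the same-passage differences under every alternative run. Scaling by library totals alone moved the all-gene median to -0.19, -0.25 and -0.05 log2 for NaCl, raffinose and urea; ENSCAFG00000006902 was then at -2.92, -3.09 and -4.14, and ENSCAFG00000005437 at -6.01, -6.59 and -3.75. For NaCl against raffinose no alternative called either gene, the replicate block included (0.10 and 0.45); with the 2 groups alone ENSCAFG00000005437 had too few reads to be fitted. Genes called in that comparison numbered 3595 with the replicate block and 14 against a minimum fold of 1.5, in place of 1948. The replicate block changed no call of the 2 genes, and called 2 neighbours of each lower after urea.

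The passage slope of ENSCAFG00000006902 ranged from -0.50 to -0.25 when each passage was left out, and was -0.027 with summed counts; that of ENSCAFG00000005437 ranged from -0.56 to -0.28. Genes called for the slope numbered 1100 to 2745 with a passage left out, 858 without passages 1 and 19 and 7 with summed counts, in place of 2048. Without passages 1 and 19, the urea slope difference of ENSCAFG00000006902 was -0.25 in place of -0.80, and that of ENSCAFG00000005437 reversed to 0.22.

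The correlation in control kept its call with each passage left out (0.75 to 0.87) and with a linear passage term removed (0.88). That in urea ranged from 0.64 to 0.80, with the call lost in 5 of 12 cases, and was 0.61 with the passage term removed, also no longer past the threshold. For ENSCAFG00000005437 in control and NaCl, r ranged from 0.53 to 0.82 with the call lost in 7 of 12 cases, and it was also lost with the passage term removed (0.68) and with a prior count of 2 (0.67). In control and raffinose it ranged from 0.37 to 0.71, and passed only without passage 4 (0.71, permutation test, adjusted p = 0.031). In control and urea it reversed to -0.061 with the passage term removed. Without passage 17, r reversed for both genes in raffinose (-0.24 to 0.43 over all passages left out) and for ENSCAFG00000006902 in control and raffinose (-0.18 to 0.44). The causes were not tested.

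Among neighbours of ENSCAFG00000006902, library totals called 4 lower after raffinose in place of 2. With 10 genes on each side, 12 were tested. Of these, 7, 6 and 1 were lower after NaCl, raffinose and urea, and 2, 2 and 2 were higher. For ENSCAFG00000005437, 8 were tested, with 5, 6 and 1 lower and 0, 2 and 1 higher. Over all tested genes 36.1%, 38.2% and 24.9% were lower, and 34.6%, 36.7% and 27.4% higher. Whether the neighbours differ from these shares was not tested. Depth limits ENSCAFG00000005437 after NaCl and raffinose, where libraries held at most 16 reads.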
